A study of Homo sapiens with 6 samples.

Results

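The genes described are 51 genes of the hypoxia response and of glycolysis, chosen by name: the hypoxia-inducible factor (HIF) subunits and the proteins that control them, the enzymes of glycolysis, glucose and lactate transporters with the pyruvate dehydrogenase kinases, and other genes known as HIF targets. Every probe set of the array whose gene symbol entry includes one of these names was taken, alone or with another gene, which gave 119 of 54613 probe sets. Of the 51 genes, 48 had a probe set that names no other gene and were among the 19775 genes measured; CA9, SLC16A1 and SLC16A3 had none and were not analysed here. RNA came from MDA-MB-436 cells, a long-established breast tumour line, on 3 arrays of wild type cells and 3 arrays of cells that stably carry an expression plasmid for NF1-C2 (NF1-C2S in the sample titles), a product of the nuclear factor I gene NFIC. Both groups grew in RPMI-1640 medium with 10% FCS, the supplement PEST and 5 μg/ml insulin, under air with CO2, and no label names a hypoxic treatment. No label names cells that carry an empty plasmid, and the sources used here do not state whether the transfected cells are 1 clone or a pool. The labels do not tell whether replicates are separate cultures, so the spread behind each p-value may be only technical.

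HIF is a pair of proteins, an oxygen-controlled alpha subunit (HIF1A or EPAS1) and a constant partner (ARNT). With oxygen present, the prolyl hydroxylases EGLN1, EGLN2 and EGLN3 mark the alpha subunits, VHL then directs their destruction, and HIF1AN blocks their contact with co-activators, so control of the alpha subunits lies largely at the protein and not in their RNA. Stabilised HIF raises the RNA of glucose transporters, glycolytic enzymes and PDK1, which keeps pyruvate out of mitochondria, and of genes for mitophagy, acid balance, collagen modification and secreted factors; it also raises EGLN1 and EGLN3, which feed back on it.

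The 6 arrays separated by group: values of 2 arrays correlated at 0.992 to 0.997 within a group and at 0.971 to 0.976 between groups over all probe sets, and 76.8% of the variance lay on the first principal component. NFIC itself had 8.40, 8.49 and 8.52 on the wild type arrays and 8.22, 8.23 and 8.30 on the NF1-C2S-labelled arrays (log2 change -0.22, SE 0.07, limma adjusted p = 0.0470). The sources used here do not say whether its probes lie within the plasmid's part of the gene, so NFIC is no check of the labels, and every direction rests on them. Markers of a mesenchymal-like breast line were present: VIM was at 13.54 in wild type and 13.01 in NF1-C2S-labelled cells, a fall (adjusted p = 6.44e-04). Epithelial markers were mixed. The keratin KRT18 fell from 12.55 to 11.62 (adjusted p = 1.36e-04), KRT8 was at 6.59 and 6.64, and EPCAM at 5.71 and 4.96. CDH1, at 3.42 and 3.44, and KRT19 lay below the median of all probe sets (4.82) in both groups. Of 14 markers of leukocytes, endothelium, red cells and hepatocytes, 10 were measured, with group means from 3.22 to 6.59, and 6 lay below that median in both groups; CD14 rose from 5.77 to 6.59 (adjusted p = 0.00947), and its part in the results was not tested. Wild type replicate 3 stood apart among the genes described here: 7 of the 48 (14.6%, against 4.49% of all genes) were over 0.3 log2 above the mean of the other wild type arrays, namely ANKRD37, CA12, EFNA1, NDRG1, SLC2A3, STC1 and STC2, and 0 were lower by as much. This array's column also carries extra decimals in 6354 values, 49 of them on probe sets described here, and other columns carry none. Where leaving this array out changed a call or a sign among the 48 genes, that result is given. Values that moved by over 1.5 times are not all given: PFKL, for example, changed by -0.043, and by -0.008 without this array.

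Most of the measured genes of the module differed between the groups, and more were higher than lower in the NF1-C2S-labelled cells. Each gene was read by its brightest probe set that names no other gene. Of 48 genes, 30 (62.5%) passed the threshold of an adjusted p under 0.05, 20 higher and 10 lower. By this reading 7 were higher by 2-fold or more while 0 were lower by as much. Over all 19775 genes, 31.9% passed, 15.0% higher and 16.9% lower, and 6.73% did so by 2-fold or more in either direction. Genes that are expressed pass more often: among the 13142 genes at or above the median of all probe sets in a group, 45.7% passed, 21.6% higher and 24.0% lower, and 9.91% did so by 2-fold or more. The groups did not overlap for 37 of the 48 genes, against 43.0% of all genes and 58.8% of the expressed ones. The median absolute log2 change was 0.23 over 19 glycolytic enzymes and 0.577 over 17 other HIF targets, beside 0.16 over all genes. All genes include 6633 below the median of all probe sets in both groups, while 0 of these enzymes and targets lay there. The median over expressed genes alone was not computed. The median signed change was -0.014 for the enzymes and 0.556 for the other targets, beside 0 for all genes. In RNA from whole cultures, fewer cells with a transcript and less of it per cell cannot be told apart.

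The HIF subunits themselves did not move together. HIF1A, the alpha subunit present in most cells, had log2 signals of 11.93, 11.89 and 11.90 on the wild type arrays and 12.05, 12.06 and 12.09 on the NF1-C2S-labelled arrays. The groups did not overlap, but the change was small and did not pass the threshold (0.16, SE 0.06, limma adjusted p = 0.0991). It did pass with a trended, robust variance prior (adjusted p = 0.00320). It also passed when only genes at or above the median of all probe sets in a group were fitted (adjusted p = 0.0480). EPAS1, which encodes HIF-2 alpha, fell: its signals were 11.18, 11.22 and 11.18 in wild type and 10.64, 10.58 and 10.35 in NF1-C2S-labelled cells. Every NF1-C2S-labelled array lay below every wild type array, with a change of -0.67 (SE 0.09, 1.59-fold, adjusted p = 9.96e-04). Another EPAS1 probe set fell by 0.79 (adjusted p = 2.45e-04 over all probe sets), and the last, at 3.09 to 3.47 on all arrays, changed by -0.11 (adjusted p = 0.600). ARNT, the shared partner, had 8.06, 8.14 and 8.33 against 8.43, 8.43 and 8.24. These groups overlapped (change 0.19, SE 0.10, adjusted p = 0.203), and none of its 7 probe sets passed the threshold.

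Among the proteins that control HIF, the main prolyl hydroxylase rose and VHL fell. EGLN1, the hydroxylase that acts most on HIF1A in well-oxygenated cells, had 9.78, 9.81 and 9.67 in wild type and 10.87, 10.85 and 10.77 in NF1-C2S-labelled cells. The groups were far apart relative to their spread (change 1.08, SE 0.07, 2.11-fold, adjusted p = 4.05e-05), and all 4 of its probe sets rose, by 0.87 to 1.12. EGLN3, another HIF-induced hydroxylase, went the other way on both of its probe sets, with a change of -0.41 (SE 0.09, adjusted p = 0.0104) on the one used; relative to its neighbouring genes the change was -0.296 and the call was lost (adjusted p = 0.0715). EGLN2 was read by 1 probe set of its own, at 4.03 to 4.44 on all arrays and so below the median of all probe sets, with a change of 0.19 (adjusted p = 0.257). It shares 2 probe sets with the read-through gene RAB4B-EGLN2, and the second of these also with RAB4B. They rose by 0.36 and 0.38 (adjusted p = 0.0208 and 0.0342 over all probe sets), and cannot be given to any single gene. VHL, the recognition part of the ligase that removes hydroxylated HIF, had 7.11, 6.90 and 7.21 against 6.15, 6.28 and 6.37, without overlap (change -0.81, SE 0.10, 1.75-fold, adjusted p = 7.62e-04). That value rests on 1 probe set ending in _s_at, a class whose probes may also match related transcripts; the other VHL probe set, at 3.09 to 3.42, changed by -0.17 (adjusted p = 0.274). The 20 nearest genes along the chromosome had a median change of -0.339 around VHL, and VHL was lower by 0.468 relative to them (adjusted p = 0.00556). HIF1AN, the asparagine hydroxylase of HIF, did not pass the threshold (-0.10, adjusted p = 0.488), and of its 3 probe sets 1 rose, by 0.38 (adjusted p = 0.0449 over all probe sets), while the others gave -0.10 and -0.28. In all, 4 of these 8 genes passed, 1 higher and 3 lower, against 31.9% of all genes and 45.7% of expressed ones.

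**Figure D1:**
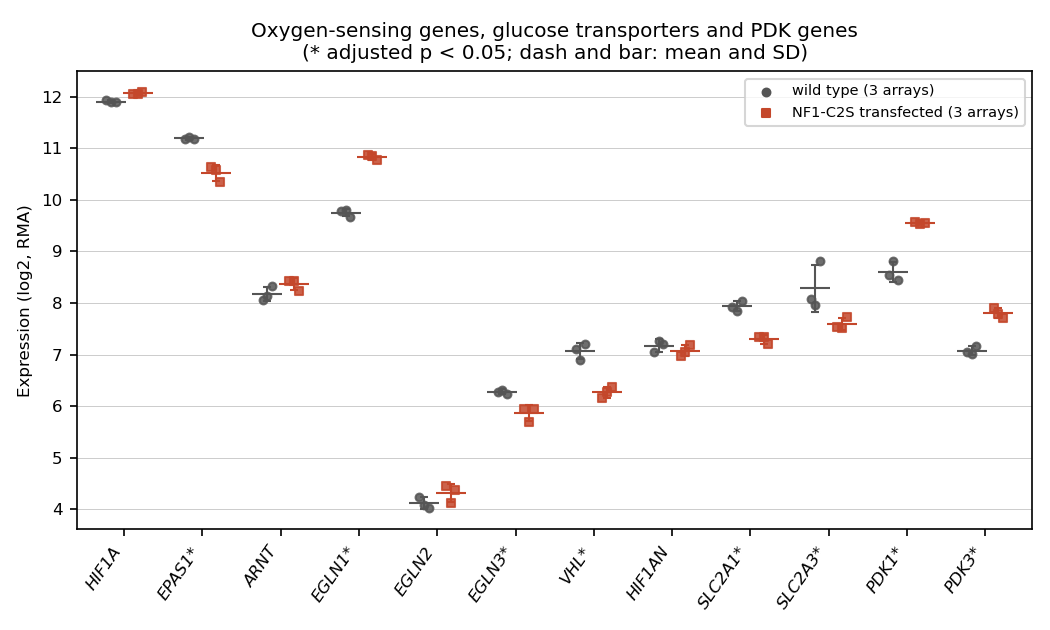
Log2 signal of each array (points) for the HIF subunits, their regulators, the glucose transporters and the pyruvate dehydrogenase kinases, with group mean (dash) and SD (bar), 3 arrays a group, and an asterisk for a limma adjusted p under 0.05. EGLN1, PDK1 and PDK3 sit higher and EPAS1, VHL and SLC2A1 lower on every NF1-C2S-labelled array, while HIF1A differs by 0.16; SLC2A3 shows wild type replicate 3 apart at 8.81. Levels of different genes come from different probes and are not comparable with each other.

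Of 19 glycolytic enzymes, 10 passed the threshold, 8 higher and 2 lower. Their share, 52.6%, is near the 45.7% of expressed genes and above the 31.9% of all genes. The largest changes were rises of ALDOC, ENO2 and PFKM. The enzymes that did not pass were GPI, PFKL, PFKP, GAPDH, PGK1, PGAM1, ENO1, LDHA and LDHB, with changes from -0.19 for GPI (SE 0.07, adjusted p = 0.0661) to 0.0040 for PGK1 (SE 0.06, adjusted p = 0.975). LDHA, which makes lactate and is among the best known HIF targets, had a change of -0.12 (SE 0.08, adjusted p = 0.309). GAPDH had 14.36 in wild type and 14.23 in NF1-C2S-labelled cells, near the top of the scale (14.62), where a change may be compressed. None of the 6 probe sets of PGK1, the 4 of ENO1 or the 3 of GAPDH passed the threshold.

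At the entry to glycolysis, HK1, the hexokinase of most tissues, changed by 0.26 (SE 0.06, adjusted p = 0.0166). Relative to its 20 neighbouring genes the change was 0.058 (adjusted p = 0.647), and without wild type replicate 1 or 2 or NF1-C2S-labelled replicate 3 the adjusted p was 0.0592, 0.0556 or 0.0523. HK2, the hexokinase that HIF and insulin raise, gave opposite answers from its 3 probe sets. The brightest had 9.28, 9.29 and 9.17 in wild type and 9.84, 9.62 and 9.77 in NF1-C2S-labelled cells, a rise of 0.50 (SE 0.08, adjusted p = 0.00283). The other two fell, from 7.16, 7.38 and 7.04 to 6.21, 6.42 and 6.35 (-0.87, adjusted p = 8.65e-04 over all probe sets), and from 6.85, 7.18 and 6.88 to 6.28, 6.24 and 5.97 (-0.81, adjusted p = 0.00239). No direction is therefore given for HK2 as a gene, and it counts as higher above only through its brightest probe set. The mean of the 3 probe sets changed by -0.392 (adjusted p = 0.00755).

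Phosphofructokinase, the committed step, is built from the subunits PFKL, PFKM and PFKP, and of these PFKM rose. Its signals, on a single probe set ending in _s_at, were 8.93, 9.03 and 8.97 in wild type and 9.63, 9.73 and 9.56 in NF1-C2S-labelled cells. The groups did not overlap (change 0.66, SE 0.07, 1.58-fold, adjusted p = 4.10e-04), while PFKL changed by -0.04 (adjusted p = 0.730) and PFKP by -0.18 (adjusted p = 0.107). PFKFB3 and PFKFB4 make fructose 2,6-bisphosphate, the activator of that step. PFKFB3 rose by 0.43 (SE 0.08, adjusted p = 0.00596). PFKFB4 rose by 0.48 (SE 0.11, adjusted p = 0.0148); its second probe set changed by 0.08, the mean of both by 0.28 (adjusted p = 0.0690), and relative to its neighbouring genes, whose median change was -0.50, PFKFB4 rose by 0.983 (adjusted p = 4.36e-04). Without NF1-C2S-labelled replicate 2 its adjusted p was 0.0506.

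Aldolase showed the largest change of all 48 genes. ALDOC, the isoform typical of brain, had 5.16, 4.58 and 4.74 on the wild type arrays, close to the median of all probe sets, and 7.87, 8.29 and 7.97 on the NF1-C2S-labelled arrays. No wild type array came near the others, and the change was 3.22 (SE 0.17, 9.29-fold, adjusted p = 1.58e-05). With wild type signals this dim, RMA compresses the difference and the fold may be understated. ALDOC has a single probe set here. ALDOA, the isoform of most tissues, changed by -0.23 (SE 0.07, adjusted p = 0.0485). That call is at the edge: it is lost with the replicate numbers as a block (adjusted p = 0.0504), and relative to its neighbouring genes, whose median change was -0.314, ALDOA changed by 0.084 (adjusted p = 0.457); it is also lost without any 1 of the 6 arrays, at adjusted p values from 0.0632 to 0.159. TPI1, which interconverts the triose phosphates, changed by -0.27 (SE 0.06, adjusted p = 0.0130), and by -0.018 relative to its neighbours (adjusted p = 0.891); without NF1-C2S-labelled replicate 2 its adjusted p was 0.0552.

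Of the enolases, ENO2, the isoform named for neurons, rose, and ENO1 did not pass the threshold (-0.05, adjusted p = 0.635). ENO2 had 8.91, 8.94 and 9.05 in wild type and 9.62, 9.44 and 10.00 in NF1-C2S-labelled cells. The groups did not overlap, though the NF1-C2S-labelled arrays spread more (change 0.72, SE 0.14, 1.65-fold, adjusted p = 0.00587). PKM, the pyruvate kinase of most tissues and tumours, changed by 0.38 (SE 0.08, adjusted p = 0.00662) on its brightest probe set; the other gave 0.03, and relative to neighbouring genes the change was 0.134 (adjusted p = 0.334). These probe sets were not read here as splice forms of PKM.

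**Figure D2:**
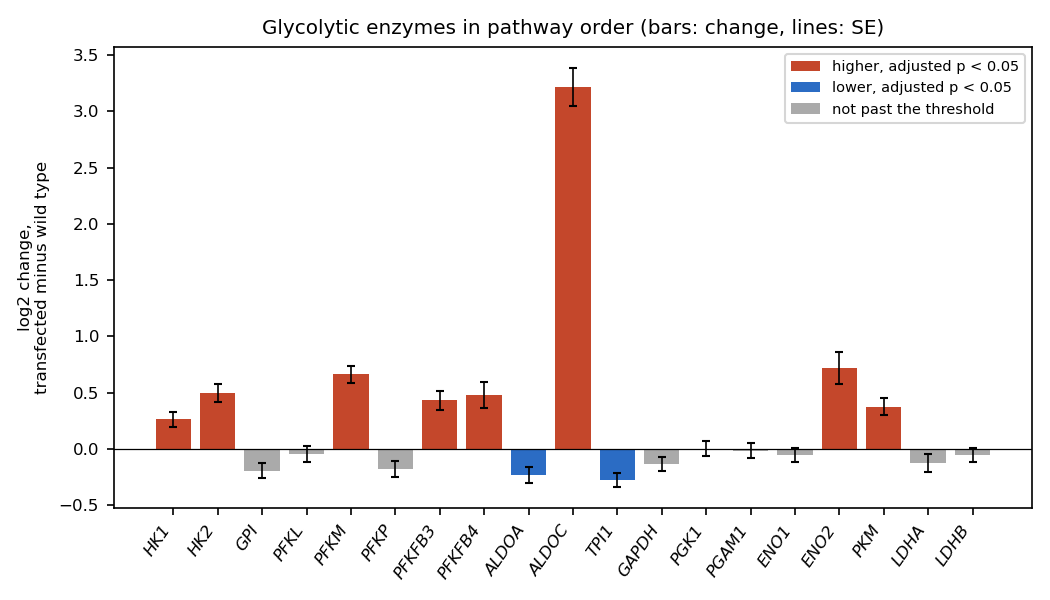
Log2 change, NF1-C2S-labelled minus wild type (bars), with SE (lines) for 19 glycolytic enzymes in pathway order, 3 arrays a group; red bars are higher and blue bars lower at a limma adjusted p under 0.05, and grey bars did not pass. ALDOC stands apart at 3.22, ENO2 and PFKM follow at 0.72 and 0.66, and the enzymes from GAPDH to ENO1 lie between -0.13 and 0.0040.

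Among textbook HIF targets, the glucose transporter genes SLC2A1 and SLC2A3 fell, while the pyruvate dehydrogenase kinase genes PDK1 and PDK3 rose. SLC2A1, which encodes the transporter GLUT1, had 7.93, 7.84 and 8.05 in wild type and 7.34, 7.34 and 7.20 in NF1-C2S-labelled cells. It fell without overlap (change -0.65, SE 0.08, 1.56-fold, adjusted p = 8.00e-04); this probe set ends in _s_at, and the other, dimmer one changed by 0.045 (adjusted p = 0.833), so the call rests on 1 probe set. SLC2A3, which encodes GLUT3, had 8.08, 7.97 and 8.81 against 7.53, 7.51 and 7.72, with wild type replicate 3 far above the others. Its change was -0.70 (SE 0.21, 1.63-fold, adjusted p = 0.0394), and -0.438 without that array (adjusted p = 0.0201); leaving out wild type replicate 1 or any NF1-C2S-labelled array instead lost the call, at adjusted p values from 0.0509 to 0.109. This probe set ends in _x_at, and SLC2A3 has 3 of its own. Another changed by -1.01 (2.01-fold, adjusted p = 0.0443 over all probe sets), and the last by -0.82 (adjusted p = 0.0502). The 2 probe sets that SLC2A3 shares with SLC2A14 also read high in wild type replicate 3, at 8.24 against 7.57 and 7.41, and at 7.88 against 6.66 and 6.92, and their values in it carry no extra decimals. They cannot be given to either gene.

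PDK1 and PDK3 phosphorylate pyruvate dehydrogenase and so limit the entry of pyruvate into the citric acid cycle. PDK1 had 8.54, 8.82 and 8.44 in wild type and 9.57, 9.53 and 9.55 in NF1-C2S-labelled cells. Every NF1-C2S-labelled array lay above every wild type array (change 0.95, SE 0.10, 1.93-fold, adjusted p = 3.73e-04). PDK3 had 7.05, 7.01 and 7.17 against 7.90, 7.79 and 7.71, again without overlap (change 0.72, SE 0.08, 1.65-fold, adjusted p = 4.22e-04). Of their probe sets, 2 of 3 for PDK1 and 4 of 5 for PDK3 passed the threshold, all higher.

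Among the other HIF targets the mitophagy receptors BNIP3 and BNIP3L rose. Of 17 measured genes, 12 passed the threshold (70.6%, against 31.9% of all genes and 45.7% of expressed ones), 9 higher and 3 lower. BNIP3, a mitochondrial outer membrane protein that recruits the autophagy machinery, had 10.74, 10.80 and 10.66 in wild type and 12.21, 12.20 and 12.29 in NF1-C2S-labelled cells. The arrays of each group lay close together (change 1.50, SE 0.07, 2.83-fold, adjusted p = 1.12e-05), and its second probe set rose by 1.64 (adjusted p = 1.61e-05). BNIP3L, its relative also known as NIX, had 7.64, 7.87 and 8.0 against 9.44, 9.31 and 9.59. It rose by 1.61 (SE 0.12, 3.05-fold, adjusted p = 5.22e-05), and by 0.91 on its second probe set.

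The stanniocalcins STC1 and STC2, secreted glycoproteins, rose on all of their probe sets. STC1 had 8.07, 7.97 and 8.72 in wild type and 9.70, 9.35 and 9.52 in NF1-C2S-labelled cells, with wild type replicate 3 above the other wild type arrays. The change was 1.27 (SE 0.20, 2.41-fold, adjusted p = 0.00213), and 1.503 without that array. STC2 had 7.82, 7.71 and 8.08 against 9.00, 8.91 and 9.13, without overlap (change 1.14, SE 0.11, 2.21-fold, adjusted p = 2.12e-04). ANKRD37, a small ankyrin repeat protein, had 5.19, 5.46 and 5.63 against 6.63, 6.60 and 6.98 (change 1.31, SE 0.14, 2.48-fold, adjusted p = 3.79e-04), and its dimmer probe set changed by 0.21. Signals of this size lie close to the median of all probe sets, where the normalization compresses differences.

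Among targets that act on transcription, MXI1 and KDM3A rose and BHLHE40 fell. MXI1, an antagonist of MYC, had 8.22, 8.30 and 8.19 in wild type and 9.10, 9.12 and 9.39 in NF1-C2S-labelled cells, without overlap (change 0.97, SE 0.10, 1.95-fold, adjusted p = 2.24e-04). KDM3A, a histone H3 lysine demethylase, had 8.10, 8.12 and 8.11 against 8.94, 8.95 and 9.14 (change 0.90, SE 0.08, 1.87-fold, adjusted p = 1.22e-04). Its second probe set changed by -0.10, so this rise rests on 1 probe set. BHLHE40, a basic helix-loop-helix repressor, moved the other way by -0.39 (SE 0.10, adjusted p = 0.0242), and by -0.018 relative to its neighbouring genes, whose median change was -0.375 (adjusted p = 0.923). The adjusted p of BHLHE40 was 0.0528 without wild type replicate 1, 0.0819 without wild type replicate 3 and 0.0781 without NF1-C2S-labelled replicate 2.

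The collagen-modifying enzymes split. P4HA1 and P4HA2 are catalytic subunits of prolyl 4-hydroxylase, which stabilises the collagen helix. P4HA1 had 9.59, 9.54 and 9.70 in wild type and 10.27, 10.10 and 10.19 in NF1-C2S-labelled cells (change 0.58, SE 0.08, 1.49-fold, adjusted p = 0.00110); its other probe set changed by -0.05 (adjusted p = 0.810), and relative to its neighbouring genes the change was 0.358 (adjusted p = 0.0116). P4HA2 had 8.62, 8.54 and 8.76 against 9.26, 9.00 and 9.33 (change 0.56, SE 0.11, 1.47-fold, adjusted p = 0.00574), and 2 of its 3 probe sets rose. PLOD2, the lysyl hydroxylase of collagen cross-links, fell without overlap, from 7.68, 7.81 and 7.76 to 7.19, 7.22 and 7.26 (change -0.53, SE 0.07, 1.44-fold, adjusted p = 8.73e-04), on both probe sets. PLOD1, its relative, did not pass the threshold (0.06, SE 0.11, adjusted p = 0.733).

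ADM, which encodes the vasodilator peptide adrenomedullin, showed the largest fall of the 48 genes when each is read by its brightest probe set. Its signals were 10.82, 10.88 and 10.71 in wild type and 9.98, 9.87 and 9.78 in NF1-C2S-labelled cells. The groups did not overlap (change -0.93, SE 0.08, 1.90-fold, adjusted p = 1.42e-04), and ADM has 1 probe set. Of the remaining targets, CA12, a carbonic anhydrase of the cell surface, had a change of 0.46 (SE 0.19, adjusted p = 0.117), and 0.672 without wild type replicate 3 (adjusted p = 0.0144); its neighbouring genes had a median change of 0.278. NDRG1, a stress-induced gene widely used as a hypoxia marker, had 8.86, 8.91 and 10.01 in wild type and 9.27, 8.92 and 9.40 in NF1-C2S-labelled cells. Its overlapping groups gave -0.06 (SE 0.30, adjusted p = 0.915), and 0.312 without wild type replicate 3 (adjusted p = 0.205), so that 1 array sets the sign. EFNA1, an ephrin ligand, had -0.38 (SE 0.13, adjusted p = 0.0654), and -0.248 without that array (adjusted p = 0.148) and -0.442 without NF1-C2S-labelled replicate 1 (adjusted p = 0.0492). FAM162A, a mitochondrial protein, had -0.14 (SE 0.07, adjusted p = 0.173) on its brightest probe set, while a dim one, at 3.88 to 4.75, rose by 0.70 (adjusted p = 0.00124 over all probe sets).

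**Figure D3:**
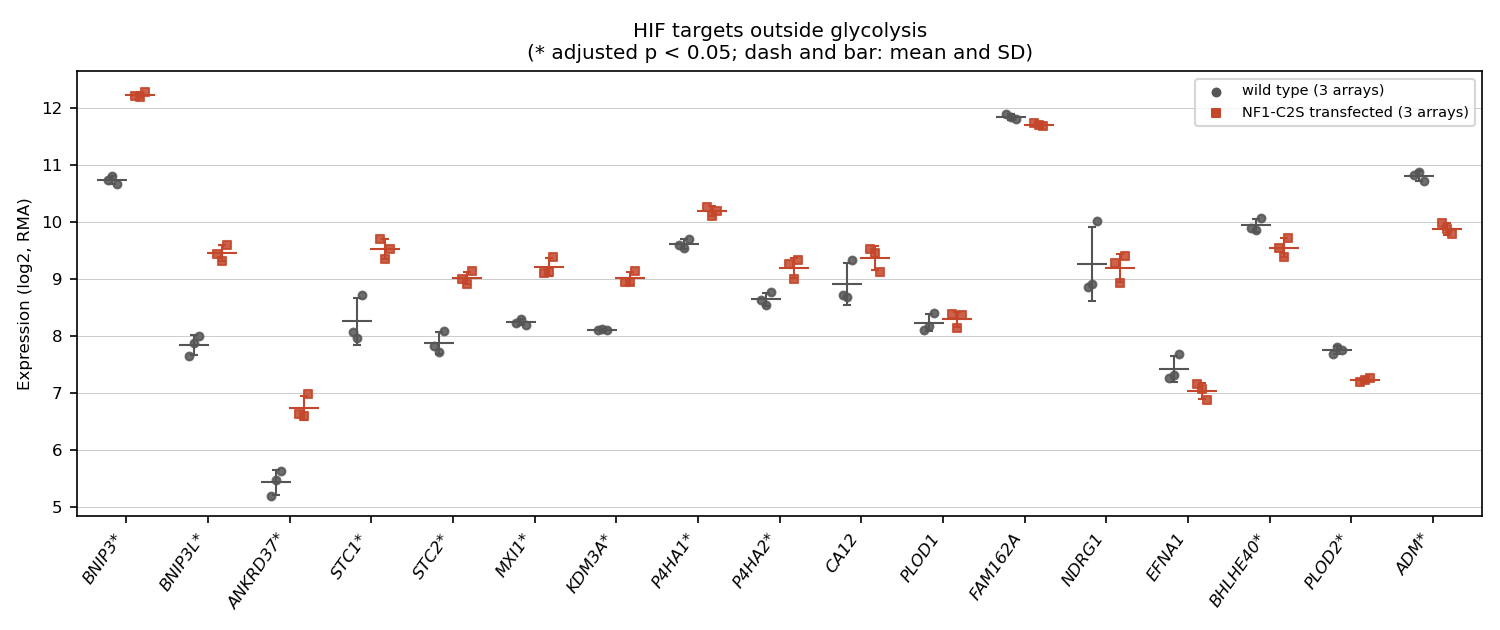
Log2 signal of each array (points) for the 17 measured HIF targets outside glycolysis and transport, with group mean (dash) and SD (bar), 3 arrays a group; an asterisk marks a limma adjusted p under 0.05. BNIP3, BNIP3L, STC1, STC2 and ANKRD37 are higher on every NF1-C2S-labelled array and ADM and PLOD2 lower, while the wild type array at 10.01 for NDRG1 and 9.33 for CA12 is replicate 3.

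Because many of these genes are known as HIF targets, the promoters of those that moved most are shown, from RefSeq (GRCh38.p14): the rises of 2-fold or more with a window, ADM as the largest fall by brightest probe set, and PLOD2 as a fall with matching letters. The genes also include the HIF subunits and their regulators, which the shares below do not separate. Each is the 250 bases before the gene's start, 5′ to 3′ on the gene's strand. Capitals mark every match to ACGTG or GCGTG, the core letters of the hypoxia response element, on either strand, where the reverse matches read CACGT and CACGC and the palindrome CACGTG counts once. The windows are chr1:231422288-231422537 (minus strand) for EGLN1, chr17:28576896-28577145 (minus) for ALDOC, chr10:131981924-131982173 (minus) for BNIP3, chr4:185396591-185396840 (plus) for ANKRD37, chr5:173328415-173328664 (minus) for STC2, chr11:10304823-10305072 (plus) for ADM and chr3:146161185-146161434 (minus) for PLOD2.
EGLN1: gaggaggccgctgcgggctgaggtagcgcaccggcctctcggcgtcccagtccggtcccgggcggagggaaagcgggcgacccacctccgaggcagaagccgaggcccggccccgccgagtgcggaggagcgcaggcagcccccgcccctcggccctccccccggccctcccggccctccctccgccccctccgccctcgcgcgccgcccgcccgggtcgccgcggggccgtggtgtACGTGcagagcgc
ALDOC: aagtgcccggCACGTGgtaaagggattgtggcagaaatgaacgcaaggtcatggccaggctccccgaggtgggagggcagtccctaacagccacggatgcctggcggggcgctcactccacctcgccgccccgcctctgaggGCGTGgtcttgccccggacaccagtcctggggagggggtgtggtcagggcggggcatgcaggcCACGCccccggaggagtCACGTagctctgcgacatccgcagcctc
BNIP3: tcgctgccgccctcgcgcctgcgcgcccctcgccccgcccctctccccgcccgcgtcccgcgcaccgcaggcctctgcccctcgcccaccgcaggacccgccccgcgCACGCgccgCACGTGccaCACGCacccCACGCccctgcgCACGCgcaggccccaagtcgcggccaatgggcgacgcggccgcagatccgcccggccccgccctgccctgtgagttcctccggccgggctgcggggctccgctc
ANKRD37: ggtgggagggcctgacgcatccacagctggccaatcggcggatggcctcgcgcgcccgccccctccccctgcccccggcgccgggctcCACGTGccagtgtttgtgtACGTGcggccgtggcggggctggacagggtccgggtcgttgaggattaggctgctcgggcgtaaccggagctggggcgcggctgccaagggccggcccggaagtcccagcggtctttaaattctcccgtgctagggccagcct
STC2: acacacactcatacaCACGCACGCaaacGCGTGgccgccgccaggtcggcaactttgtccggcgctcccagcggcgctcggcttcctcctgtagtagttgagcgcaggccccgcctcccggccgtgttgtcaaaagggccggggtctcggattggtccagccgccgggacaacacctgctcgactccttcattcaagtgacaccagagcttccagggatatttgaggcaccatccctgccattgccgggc
ADM: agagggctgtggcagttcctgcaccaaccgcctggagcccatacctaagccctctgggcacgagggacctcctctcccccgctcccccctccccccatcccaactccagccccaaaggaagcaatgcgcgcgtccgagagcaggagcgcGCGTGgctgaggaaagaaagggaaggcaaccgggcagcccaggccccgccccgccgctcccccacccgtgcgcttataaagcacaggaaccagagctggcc
PLOD2: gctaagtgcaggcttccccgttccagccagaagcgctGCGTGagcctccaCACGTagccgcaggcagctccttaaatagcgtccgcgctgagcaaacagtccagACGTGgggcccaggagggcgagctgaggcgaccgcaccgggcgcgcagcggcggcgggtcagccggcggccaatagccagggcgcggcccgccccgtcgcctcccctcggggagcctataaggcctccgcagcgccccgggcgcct

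The table held windows for 45 of the 51 genes, 76 windows in all with alternative starts. ACGTG was found in 28 of them (36.8%), against 18.5% of all 35116 windows of that length, and GCGTG in 38.2% against 32.2%. ACGTG was in 13 of the 36 windows of genes that were higher (36.1%), 6 of the 11 of genes that were lower (54.5%) and 7 of the 23 of measured genes that did not pass (30.4%). Genes with several starts weigh more in these shares. Counted by gene, at least 1 window with ACGTG was held by 12 of the 18 genes that were higher, 4 of the 8 that were lower and 7 of the 17 that did not pass, beside 5935 of all 27305 genes, so the order of the higher and lower genes depends on how they are counted. The letters thus stood before genes of both directions. BNIP3, EGLN1 and ANKRD37 rose with ACGTG in the window, and PLOD2, shown because it held these letters, fell. STC2 and ADM, which moved oppositely, held GCGTG alone. Windows of 1 gene can overlap. A match in these letters is a description and not a bound site.

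The probe sets of a gene agreed in some cases and not in others. Of the 119 probe sets, 56 (47.1%) passed the threshold in the fit over all probe sets, 37 higher and 19 lower. Of all 54613, 22.2% passed, 10.8% higher and 11.4% lower. These shares compare probe sets of unlike signal: 17 of the 119 lay below the median of all probe sets in both groups, against 26159 of the 54613. A share over expressed probe sets alone was not computed for this fit. Among the 33 genes with several probe sets of their own, 23 passed by their brightest probe set in the fit over genes. In the fit over all probe sets, 8 of these passed on every probe set in 1 direction: EGLN1, BNIP3, BNIP3L, STC1 and STC2 higher, and EGLN3, PLOD2 and BHLHE40 lower. ALDOA is among the 23, but its brightest probe set did not pass in the fit over all probe sets (adjusted p = 0.0815). Such counts were not computed for all genes with several probe sets. HK2 was the one gene whose probe sets passed in opposite directions. With the mean of all probe sets in place of the brightest, the change was -0.487 for VHL, -0.30 for SLC2A1, 0.542 for PDK1, 0.762 for ANKRD37, 0.263 for P4HA1, 0.40 for KDM3A and 0.204 for PKM. These 7 still passed the threshold, at adjusted p values from 1.08e-04 for ANKRD37 to 0.0471 for PKM.

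**Figure D4:**
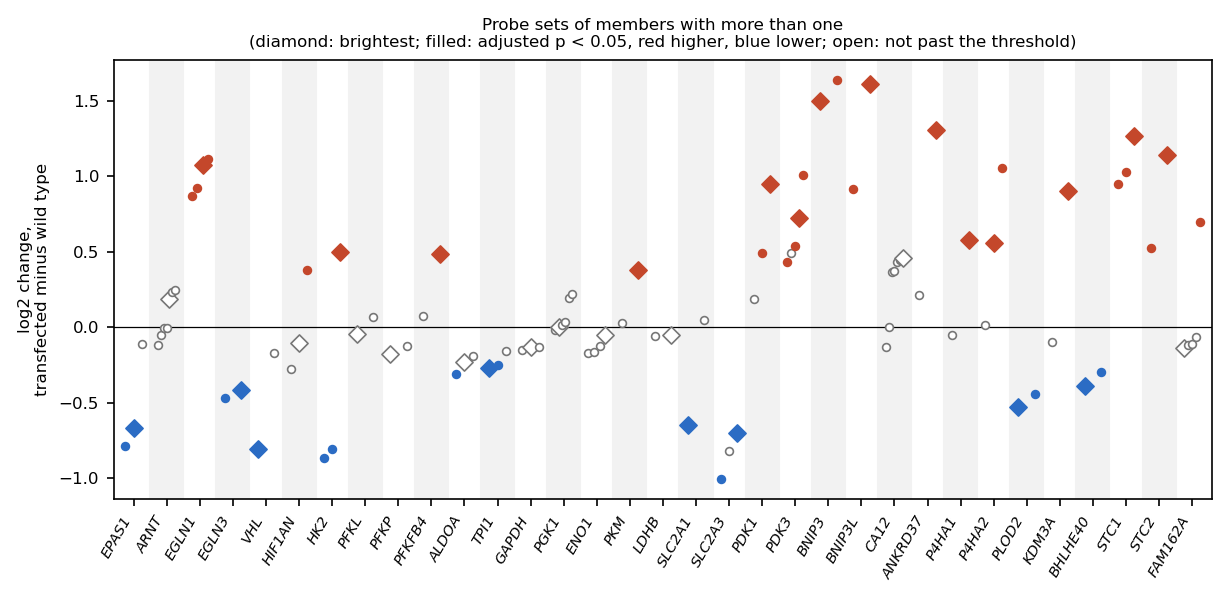
Log2 change, NF1-C2S-labelled minus wild type, of each probe set (points) for the 33 genes with more than 1 probe set of their own; diamonds are the brightest probe set of a gene, and filled marks passed an adjusted p of 0.05 in the limma fit over all 54613 probe sets. The probe sets of EGLN1 and BNIP3 lie together at 0.87 to 1.12 and 1.5 to 1.64, while those of HK2 lie on both sides of 0, from -0.87 to 0.50.

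Of 102 measured genes of the same pathways outside the 51, 37 passed the threshold (36.3%), 21 higher and 16 lower. Of the 46 around glycolysis and pyruvate, 12 passed (26.1%, against 31.9% of all genes), 7 higher and 5 lower. HKDC1, a hexokinase relative, fell the furthest, from 9.79 ± 0.08 (SD, n = 3) in wild type to 6.38 ± 0.14 in NF1-C2S-labelled cells (change -3.41, SE 0.09, 10.6-fold, adjusted p = 1.45e-06). Subunits of the pyruvate dehydrogenase complex split: PDHB rose by 0.74 (adjusted p = 1.61e-04), or 0.363 relative to its neighbouring genes (adjusted p = 0.0357), while PDHX changed by -0.85 (adjusted p = 7.53e-05) and DLAT by -0.41 (adjusted p = 0.00740). PDP1, the phosphatase that opposes the PDK enzymes, rose by 0.76 (adjusted p = 4.12e-04), or 1.215 relative to its neighbouring genes, so that PDP1, PDK1 and PDK3 were all higher. The kinase genes PDK2 (0.37, adjusted p = 0.144) and PDK4 (-0.03, adjusted p = 0.806) did not pass, and PDK4 lay below the median of all probe sets in both groups. The mitochondrial pyruvate carrier subunit MPC1 changed by -0.60 (adjusted p = 5.66e-04). The glucose transporter gene SLC2A6 rose by 0.77 (adjusted p = 3.34e-04), the mitochondrial glycerol phosphate dehydrogenase GPD2 by 0.81 (adjusted p = 1.79e-04), the lactate transporter gene SLC16A7 by 0.54 (adjusted p = 8.90e-04) and the ADP-dependent glucokinase ADPGK by 0.42 (adjusted p = 0.0158), and PGM1, which links glycogen to glycolysis, changed by -0.31 (adjusted p = 0.0337).

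Of the 56 genes of the HIF system and its targets outside the 51, 25 passed (44.6%), 14 higher and 11 lower, a share close to the 45.7% of expressed genes. ISG20, an exonuclease gene, rose by 2.67 (SE 0.13, adjusted p = 1.21e-05), the nuclear receptor gene RORA by 2.21 (SE 0.23, adjusted p = 2.94e-04) and DDIT4, an inhibitor of mTORC1, by 2.04 (SE 0.32, adjusted p = 0.00226). DDIT4 had a wide spread in wild type, 7.77 ± 0.71 (SD, n = 3) against 9.81 ± 0.21, and its change was 2.452 without wild type replicate 3. PPP1R3C and GBE1, which act in glycogen synthesis, rose by 1.13 (from 3.59 to 4.71, both below the median of all probe sets; adjusted p = 2.98e-04) and 0.79 (adjusted p = 4.38e-04), and the phosphatase gene DUSP1 by 0.94 (adjusted p = 8.04e-04). LOX, the collagen cross-linking oxidase, fell from 6.30 to 3.88 (change -2.42, SE 0.16, adjusted p = 3.48e-05), to below the median of all probe sets, so its size may be understated. EP300, a co-activator of HIF, changed by -1.51 (SE 0.31, adjusted p = 0.00787), with an SD of 0.69 among the NF1-C2S-labelled arrays. P4HTM, a transmembrane prolyl hydroxylase, changed by -1.15 (adjusted p = 4.18e-04), or -0.561 relative to its neighbouring genes (adjusted p = 0.00665), the chemokine receptor gene CXCR4 by -0.96 (adjusted p = 1.24e-04), TET1 by -0.85 (to 4.74, also below that median; adjusted p = 0.0182) and VLDLR by -0.50 (adjusted p = 0.0372), or -0.32 without wild type replicate 3 (adjusted p = 0.0265). The calls of SLC16A7, ADPGK, DLAT, PGM1, TET1 and VLDLR were each lost under at least 1 alternative. With the mean of all probe sets, the change was 0.444 for GPD2, -0.347 for MPC1, 0.893 for RORA, 0.711 for PPP1R3C, 0.60 for DUSP1 and -1.566 for LOX, all past the threshold, and CXCR4 gave -2.183 from a probe set not ending in _x_at or _s_at.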

How the data were processed

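The deposited values are log2 signals, 1 column an array. RMA made them, per the submitters' processing notes: background correction, normalization between arrays and a summary over the probes of a set, steps that shrink differences at the dim end. No version of RMA is stated in the sources used here. Of 54675 probe sets, 62 controls were left out. Probe sets were named by the platform annotation, with symbols updated through a RefSeq gene table (GRCh38.p14); 41091 name 1 gene, 1801 several and 11721 none. Each gene was represented by the probe set with the highest 6-array mean that names only that gene. Groups and replicate numbers came from the labels. Groups were compared by limma (version 3.58.1, R 4.3.3; moderated linear model, two-sided), once over 19775 genes and once over 54613 probe sets, with Benjamini-Hochberg adjustment over all of them and a threshold of 0.05; the script was tested on simulated data, with effect sizes that were raised after a first run missed many small ones, so the fit can miss small changes. Changes are NF1-C2S-labelled minus wild type. Values of every array are given for the HIF subunits and for genes past the threshold with an absolute log2 change of at least 0.5. Of the pathway genes outside the 51, up to the 6 largest rises and falls past the threshold in each list are named. PDK2 and PDK4 are named besides, as relatives of PDK1 and PDK3. Neighbouring genes are the 10 on each side along the chromosome. The genes and lists were chosen with earlier results of these data known.

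The groups share replicate numbers, so arrays of 1 number were compared for their deviations from the group means. Their correlations were 0.398, 0.238 and 0.140 for replicates 1, 2 and 3, all above 0.1, and arrays of different numbers gave -0.277 to 0.142. The correlation for replicate 3 (0.140) was no higher than the highest between different numbers (0.142), so a pairing of the arrays is not settled. The labels do not say what a number marks. The main fits do not use the number, and the fit with the number as a block is an alternative. Others were quantile normalization, other probe set choices, filters on dim probe sets, other variance settings, neighbouring genes subtracted, and each array left out.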

Additional observations from a re-analysis of the deposited data

How the results depend on the processing

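Of the 30 genes that passed the threshold, 18 kept call and direction under every alternative that measured them, among them EPAS1, EGLN1, PFKM, ALDOC, PDK1, PDK3, BNIP3, BNIP3L, STC1, STC2 and ADM, and 24 kept both with any 1 array left out. PFKM, PFKFB3, STC1, PLOD2 and KDM3A, all among the 18, were not measured when probe sets with the endings _x_at and _s_at were dropped. When probe sets with the endings _x_at and _s_at were dropped, which leaves fewer genes measured, 17 of 31 genes passed: 2 of 6 HIF regulators, 6 of 10 glycolytic enzymes, 2 of 3 transport and PDK genes and 7 of 12 other targets, against 27.0% of all genes in that setting. That setting turned SLC2A1 to 0.045 and P4HA1 to -0.05, each read from its other probe set. With the neighbouring genes' median subtracted, 6 of 19 glycolytic enzymes passed, a share close to the 31.1% of all genes in that setting, and ALDOA turned to 0.084. With the mean of all probe sets HK2 turned to -0.392. With each array left out in turn (26.6% to 30.6% of all genes passing), 25 to 29 genes of the module passed, with 4 to 4 regulators, 7 to 9 glycolytic enzymes, 3 to 4 transport and PDK genes, 11 to 13 other targets, 30 to 34 of the 102 other pathway genes (37 in the full data) and 42 to 48 of the 119 probe sets. With the replicate block 29 of the 48 genes passed, against 33.7% of all genes in that setting. ALDOA was lost, and no other call of the 48 changed. In the same setting 41 of the 102 other pathway genes and 57 of the 119 probe sets passed. The share of all probe sets that passed was not computed with an array left out or with the block, and was 22.2% in the main fit. A trended, robust variance prior added 7 genes, 2 higher and 5 lower, which made 22 higher and 15 lower in the module and 8 and 5 among the glycolytic enzymes, with 34.6% of all genes passing. Fitting only genes at or above the median of all probe sets in a group added HIF1A, GPI and EFNA1, with 49.9% of the genes fitted passing. The cause of these differences was not tested beyond the settings' construction. Signal near the median of all probe sets limits EGLN2, ANKRD37 and ALDOC in wild type, and 3 arrays a group limit the precision.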
